A study of Mus musculus with 2 samples.

Results

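A group of neighbouring genes of mouse chromosome 7 was followed through the leukocytes of Lewis lung carcinoma tumors. They are Trim5, Trim12a, Trim12c, Trim30a, Trim30d, Trim34a and Gm5900, 7 of the 27998 genes in the count tables, and they were taken by symbol. They span 706 kb, chr7:104244457-104950289 in mm10. The genes were picked from the very contrast described here, so every difference between the libraries is a description of values that led to the choice. Trim5 was all but missing and Trim12a was about 36-fold lower in the library titled cko, Trim34a was about 2.5-fold lower, and Gm5900 was higher, while Trim12c and Trim30a had nearly equal levels in both libraries. Trim30d was lower in the monocyte classes and nearly equal in the largest macrophage class.

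TRIM proteins are ubiquitin ligases that carry a RING domain, a B-box and a coiled coil. TRIM5 is best known as a restriction factor that binds the capsid of incoming retroviruses, and in rodents the TRIM5, TRIM12 and TRIM30 genes form an expanded family of close relatives in one cluster, next to the TRIM34 genes. TRIM30 is known to restrain NF-κB signaling by removing TAB2 and TAB3, adaptors of the kinase TAK1. Many genes of this cluster are induced by type I interferon in macrophages. Gm5900 is annotated as a processed pseudogene, a copy of a spliced mRNA inserted back into the genome.

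Leukocytes (CD45+) were sorted out of subcutaneous LLC tumors on day 14 after implantation into 8-week-old C57/BL6 mice, which were 10 weeks old at sampling. Lewis lung carcinoma (LLC) is a mouse lung cancer cell line. Both groups carried miR-21fl/fl, loxP-flanked alleles of the microRNA miR-21, and 1 group in addition carried LysMCre, a Cre recombinase driven by the lysozyme M gene Lyz2 and active mainly in macrophages, monocytes and granulocytes. Cells of 3 mice were pooled into 1 droplet library per genotype, so there were 2 libraries, no replicate and no test across animals. The titles call the libraries wt (miR-21fl/fl) and cko (LysMCre;miR-21fl/fl). The source field, however, attaches the conditional knockout to the wt title. The growth protocol describes a sort of tumor macrophages instead of CD45+ cells. The libraries are therefore called by their titles. Lyz2, into which Cre is inserted (chromosome 10), had a level of 19046 CPM (UMIs of a gene per 1000000 UMIs of its class) in monocytes and macrophages of the library titled wt and 8984 CPM in those of the library titled cko, which follows the titles.

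The library titled wt held 2449 barcodes and the library titled cko 2718, with medians of 8359 and 8247 unique molecular identifiers (UMIs, counted transcripts) per cell, and 5 barcodes occurred in both. After filtering, 2397 and 2645 cells remained. Cells were gated on UMIs of marker genes that include no gene of the locus. The gated monocytes and macrophages, 1579 cells titled wt and 1732 titled cko, joined 4 classes. Ly6c2+ monocyte-like cells numbered 498 and 486, Ace, Treml4 or Eno3+ monocyte-like cells 258 and 246, Ly6c2+ C1q macrophage-like cells 234 and 187, and Ly6c2-low C1q macrophage-like cells 589 and 813. The Ace, Treml4 or Eno3 gate is named by its rule, because its cells still held Ly6c2 (mean 3.01 UMIs) and Ccr2 (mean 4.02 UMIs), which mark classical monocytes. The other classes with at least 20 cells in each library were dendritic-like (37 and 65), CD8 T-like (71 and 106), CD8-negative T-like (68 and 73) and NK-like cells (56 and 49). The CD8-negative T gate also held the NK receptor gene Ncr1 (mean 1.57 UMIs), so it is not purely T cells. In a further 536 and 532 cells no gate was met. UMIs of Krt8, Krt18 or Epcam, which mark epithelial and tumor cells, occurred in 53 of the 1579 monocytes and macrophages titled wt and 103 of the 1732 titled cko. Those of both keratins titled cko lay mostly in Ly6c2-low C1q cells, with 274 of Krt8 and 325 of Krt18 against 23 and 17 titled wt. In Ace, Treml4 or Eno3+ cells the library titled wt held more, with 30 of Krt8 and 15 of Krt18 against 1 and 4. Values without the cells that held them are given below.

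The starts of the 6 TRIM genes were compared by sequence first, because the type I interferon response acts through a short element near gene starts. Windows of 250 bases before to 50 bases after each start were taken from RefSeq (GRCm38.p6), where 6 of the 7 genes had an entry. Gm5900 had none. The core of the interferon-stimulated response element, written here GAAANNGAAA and searched on both strands, occurred once in each of the 7 windows of these genes (Trim30a has 2 starts) and in 3.44% of 32851 mouse windows of the same length. The letters TTCNNNGAA, the core of the gamma-activated site, occurred in 8.30% of all windows and in none of these. The windows of 30 bases below show the match in capitals, read along the gene's strand, where it appears as the reverse complement.
Trim34a: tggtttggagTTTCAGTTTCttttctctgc
Trim5: agagttgtggTTTCTGTTTCatttccagag
Trim12a: agagttgtggTTTCTGTTTCatttccagag
Trim12c: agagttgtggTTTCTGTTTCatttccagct
Trim30a, start 1: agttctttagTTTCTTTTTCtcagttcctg
Trim30a, start 2: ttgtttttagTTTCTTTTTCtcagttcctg
Trim30d: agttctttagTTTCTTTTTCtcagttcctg

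The 30 bases of Trim5 and Trim12a were the same, and Trim12c differed from them in its last bases. The match ended 40 bases before the start of Trim5 and 20 bases before that of Trim12c, and in Trim12a it lay 11 to 20 bases after the start. Trim30a at its start 1 and Trim30d shared their window, and the window at start 2 of Trim30a differed from it in its first bases. A match is a stretch of letters and not a shown binding site. The element was thus present both in genes that differed between the libraries and in genes with a ratio near 0.

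The 250 bases upstream of each start were aligned in pairs. Because the annotated starts are offset between the genes, identity was taken over the overlap of each pair, with overhanging ends left out. Trim5 and Trim12a were identical in all 191 bases of their overlap. Trim5 and Trim12c were 94.8% identical over 231 positions, Trim12a and Trim12c 94.8% over 211, and Trim30a and Trim30d 92.2% over 245. The 3 upstream sequences of the TRIM5 and TRIM12 genes are shown because these neighbours differ most in their values. They lie on the minus strand of GRCm38.p6, at chr7:104288107-104288356 for Trim5, chr7:104315496-104315745 for Trim12a and chr7:104353350-104353599 for Trim12c, and capitals mark the interferon element where it falls inside.
Trim5: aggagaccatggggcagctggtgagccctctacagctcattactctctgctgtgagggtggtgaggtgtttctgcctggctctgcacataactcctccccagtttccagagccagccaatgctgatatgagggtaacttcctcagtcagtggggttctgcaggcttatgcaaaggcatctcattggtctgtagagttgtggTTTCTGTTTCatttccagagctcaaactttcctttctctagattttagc
Trim12a: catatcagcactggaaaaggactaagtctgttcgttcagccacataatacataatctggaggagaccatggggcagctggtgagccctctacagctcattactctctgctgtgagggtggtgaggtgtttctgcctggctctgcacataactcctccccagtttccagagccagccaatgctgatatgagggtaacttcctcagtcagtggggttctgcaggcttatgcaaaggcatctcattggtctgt
Trim12c: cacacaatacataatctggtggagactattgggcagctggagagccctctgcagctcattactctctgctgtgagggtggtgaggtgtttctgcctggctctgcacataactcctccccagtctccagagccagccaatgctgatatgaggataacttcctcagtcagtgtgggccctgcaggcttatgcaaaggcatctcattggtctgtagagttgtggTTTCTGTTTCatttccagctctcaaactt

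Trim5, the gene named for the retroviral restriction factor (ENSMUSG00000060441, chr7:104263386-104288094), had 98 UMIs in monocytes and macrophages of the library titled wt, or 5.75 CPM (exact Poisson interval 4.67 to 7.01). It had 0 UMIs in 1732 cells of the library titled cko, where 3 counts would have been 0.158 CPM. Set against that floor of 3 counts, Trim5 was at least 36.3-fold lower in the library titled cko. The wt UMIs were spread over 91 cells, with at most 2 in any cell. Intervals and floors here and below cover counting error and leave out any spread between mice.

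Trim12a (ENSMUSG00000066258, chr7:104299894-104315466), a relative of Trim5, had 323 UMIs (19.0 CPM, interval 16.9 to 21.1) in the library titled wt and 10 UMIs (0.528 CPM, interval 0.253 to 0.970) in the library titled cko. As a log2 ratio (cko to wt, of CPM) this was −5.17 (exact 95% interval −6.24 to −4.27), a 35.9-fold lower level. In the library titled wt 282 cells held a UMI, and in the library titled cko 10 cells held 1 each. Both genes were thus at or close to 0 in the same library.

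Trim12c (ENSMUSG00000057143, chr7:104338754-104353362) lies between Trim12a and the TRIM30 genes and is the nearest relative of both genes above. It had 734 UMIs (43.1 CPM) in the library titled wt and 786 UMIs (41.5 CPM) in the library titled cko, a log2 ratio of −0.05 (interval −0.20 to 0.09). The difference lay within counting error. The transcripts of Trim5 and Trim12c were 94.3% identical over their alignment and those of Trim12a and Trim12c 96.0%. Windows of 98 bases, the length of the cDNA read, that also occurred in another gene made up 13.3% of the Trim5 transcript, 8.65% of that of Trim12a and 8.07% of that of Trim12c, and 0 of the windows in the last 500 bases of any of these, where reads of a 3′ library fall. Summed, the 3 genes had 67.8 CPM in the library titled wt and 42.0 CPM in the library titled cko (log2 ratio −0.69, interval −0.82 to −0.56), so the sum was lower as well.

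Trim30a (ENSMUSG00000030921, chr7:104409025-104465193), the inhibitor of NF-κB signaling, had more UMIs than any other gene of the group. It had 2406 UMIs (141 CPM) in the library titled wt and 2449 UMIs (129 CPM) in the library titled cko. The log2 ratio was −0.13 (interval −0.21 to −0.05), a small difference of 1.09-fold. Trim30d (ENSMUSG00000057596, chr7:104470014-104507849), its close relative, had 606 UMIs (35.6 CPM) and 499 UMIs (26.3 CPM), a log2 ratio of −0.43 (interval −0.61 to −0.26). In these pooled cells Trim30d lay below Trim30a in its ratio, and their intervals did not overlap. In Ly6c2-low C1q cells the ratio was 0.01 for Trim30d and −0.06 for Trim30a. Within the 4 classes Trim30a had ratios of −0.07 to −0.04, nearer to 0 than in the pooled cells, and Ly6c2-low C1q cells made up 24.6% of kept cells titled wt and 30.7% titled cko.

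Trim34a (ENSMUSG00000056144, chr7:104244457-104262234), at the other end of the cluster and on the plus strand, had 182 UMIs (10.7 CPM) in the library titled wt and 81 UMIs (4.27 CPM) in the library titled cko. The log2 ratio was −1.32 (interval −1.72 to −0.94). Its counts are uncertain, because 85.1% of the read windows in the last 500 bases of its transcript also occurred in another gene, most closely in Trim34b (98.7% identity). Trim34b itself was nearly unseen, and the sum of both genes had 184 and 84 UMIs (log2 ratio −1.28, interval −1.67 to −0.90).

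Gm5900 (ENSMUSG00000094685, chr7:104949915-104950289), the pseudogene, was the single gene of the group that was higher in the library titled cko. It had 196 UMIs (11.5 CPM, interval 9.95 to 13.2) in the library titled wt and 639 UMIs (33.7 CPM, interval 31.2 to 36.4) in the library titled cko, for a log2 ratio of 1.55 (interval 1.32 to 1.79). Of the cells titled wt, 147 of 1579 held a UMI, against 415 of 1732 titled cko.

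Over all 9456 genes with at least 100 UMIs in monocytes and macrophages of both libraries together, 3.24% were at least 1.5-fold higher and 0.539% at least 1.5-fold lower in the library titled cko. Of the 7 genes, 6 reached that number of UMIs, with 1 higher (Gm5900) and 2 lower (Trim12a and Trim34a). Trim5 with its 98 UMIs fell just short of it and is in none of these counts. These shares are given as background only, since the genes were selected on this contrast. From the lowest ratio up, Trim12a ranked 2 of 9456, Trim34a 7 and Trim30d 119, and Gm5900 ranked 29 from the highest down. The median gene had a log2 ratio of 0.04, with the 5th and 95th percentiles at −0.26 and 0.48.

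Shares of cells were compared at equal depth. With every cell thinned to 3000 UMIs, 2.03% of monocytes and macrophages titled wt held a Trim5 UMI. Of those titled cko 0 of 1732 did, where a floor of 3 cells would be a share of 0.173%. For Trim12a the shares were 6.46% (exact Clopper-Pearson interval 5.30 to 7.79) and 0.231% (0.0630 to 0.590). The unthinned shares were 17.9% and 0.577%. For Gm5900 they were 3.61% (2.75 to 4.65) and 10.0% (8.67 to 11.6) when thinned, and 9.31% and 24.0% when not. Trim12c was found in 13.5% and 12.8% of thinned cells and Trim30a in 33.4% and 31.9%. For Trim30d the thinned shares were 10.2% and 6.35%, and at 1000 UMIs per cell they were 2.91% and 3.12%, so the order of the libraries was not kept at low depth.

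**Figure D1:**
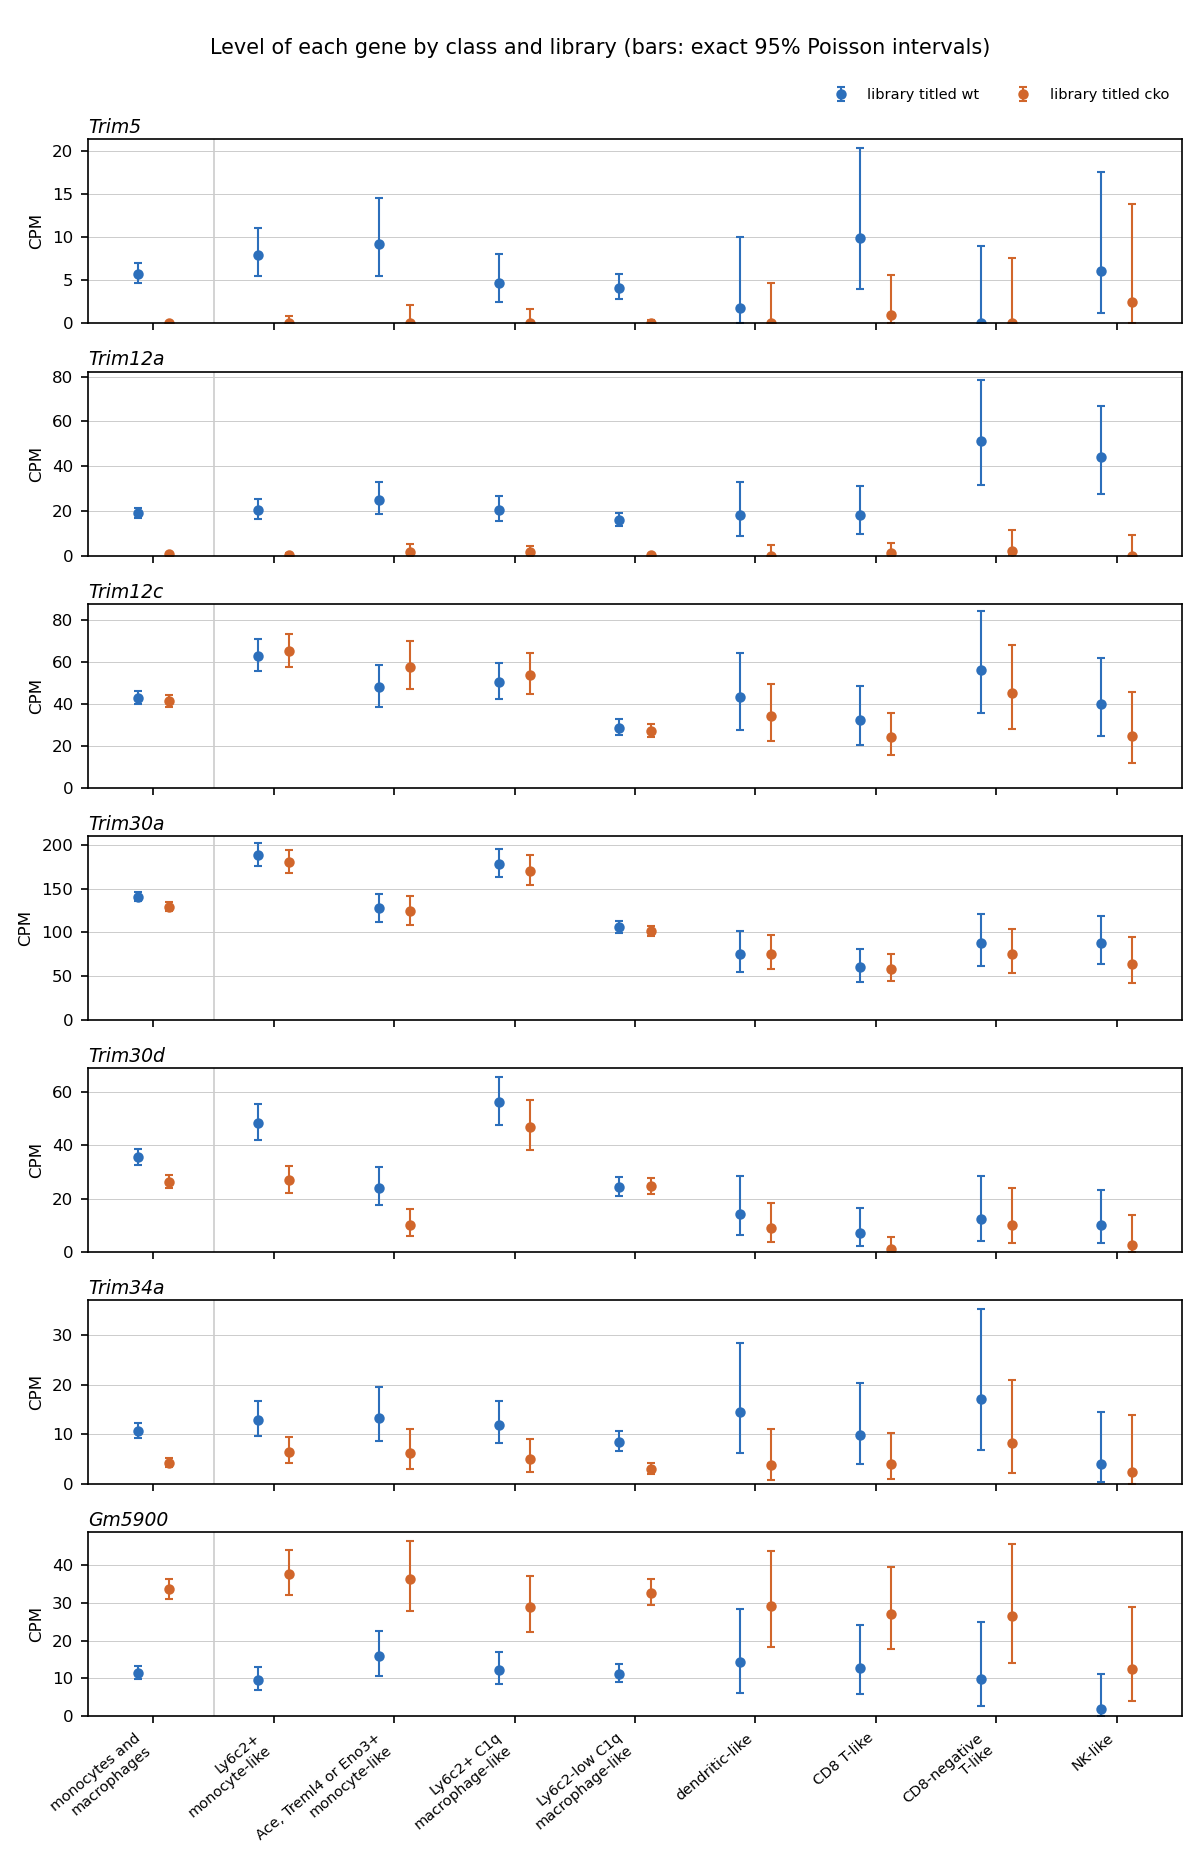
Level of each gene in CPM (y axes, from 0, scaled per gene) in the gated monocytes and macrophages together and in 8 classes (x axis), for the library titled wt (blue) and the library titled cko (orange), with exact 95% Poisson intervals. In the orange library Trim5 has at most 1 UMI and Trim12a at most 3 UMIs in each of the 8 classes, Gm5900 is higher in it, and Trim12c and Trim30a differ more between classes than between libraries.

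The classes were then taken one by one, with the ratios of all genes as background. At least 1.5-fold differences in either direction were seen in 2.24% of genes in Ly6c2+ monocyte-like cells, 3.14% in Ace, Treml4 or Eno3+ monocyte-like cells, 2.87% in Ly6c2+ C1q macrophage-like cells and 4.7% in Ly6c2-low C1q macrophage-like cells. In the last of these 6 of the 7 genes had 100 UMIs, and Gm5900 was past the fold upward and Trim12a and Trim34a downward. In Ly6c2+ monocyte-like cells 4 of the 7 had 100 UMIs, with Gm5900 past the fold upward and Trim30d downward. In the remaining 2 classes 2 and 3 genes had enough UMIs, and 0 were past the fold.

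Trim5 had 34, 18, 13 and 33 UMIs in the 4 monocyte and macrophage classes of the library titled wt, in the order given above, and 0 in each class of the library titled cko. Trim12a had 88, 49, 57 and 129 UMIs in the library titled wt, against 1, 3, 3 and 3. Its level in the library titled wt was 20.6 CPM in Ly6c2+ monocyte-like cells, 25 in Ace, Treml4 or Eno3+ cells, 20.5 in Ly6c2+ C1q cells and 16.1 in Ly6c2-low C1q cells, with counting intervals that overlapped between neighbours in this order. The low level in the library titled cko was thus common to the 4 classes.

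Gm5900 was higher in the library titled cko in each of the 4 classes, with log2 ratios of 1.98 (interval 1.47 to 2.51) in Ly6c2+ monocyte-like cells, 1.20 (0.56 to 1.87) in Ace, Treml4 or Eno3+ cells, 1.24 (0.62 to 1.89) in Ly6c2+ C1q cells and 1.54 (1.21 to 1.89) in Ly6c2-low C1q cells. Trim34a was lower in each, with log2 ratios of −0.997, −1.09, −1.23 and −1.52, with intervals below 0 at these gates. In Ly6c2+ monocyte-like cells the interval held 0 with looser gates (−0.70, interval −1.42 to 0.0051), and in Ace, Treml4 or Eno3+ cells the ratio was −2.31 with stricter gates (13 and 3 UMIs).

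Trim30a had 189 CPM in Ly6c2+ monocyte-like cells titled wt and 181 CPM in those titled cko, and 179 and 171 CPM in Ly6c2+ C1q cells, levels that overlapped in their intervals. It had 128 and 124 CPM in Ace, Treml4 or Eno3+ cells and 106 and 102 CPM in Ly6c2-low C1q cells. Trim12c was likewise highest in Ly6c2+ monocyte-like cells (63.1 and 65.4 CPM) and lowest of the 4 in Ly6c2-low C1q cells (28.6 and 27.1 CPM). For both genes the interval of the log2 ratio held 0 in each of the 8 classes.

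Trim30d differed by class. In Ly6c2+ monocyte-like cells it had 48.4 CPM titled wt and 27.0 CPM titled cko (log2 ratio −0.84, interval −1.19 to −0.51). In Ace, Treml4 or Eno3+ cells it had 24.0 and 10.2 CPM (−1.23, interval −2.10 to −0.42). In Ly6c2+ C1q cells it had 56.2 and 47.0 CPM (−0.26, interval −0.63 to 0.11), and both other settings gave intervals below 0, with −0.70 (interval −1.23 to −0.18) at stricter and −0.51 (interval −0.84 to −0.19) at looser gates. In Ly6c2-low C1q cells it had 24.4 and 24.6 CPM (0.01, interval −0.26 to 0.28). The intervals of both monocyte classes lay apart from that of the Ly6c2-low C1q class, a difference that could not be tested with 1 library per group. With stricter gates the interval of the Ace, Treml4 or Eno3+ cells was wider (−2.79 to 0.49, from 11 and 6 UMIs) and overlapped that of the Ly6c2-low C1q cells.

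**Figure D2:**
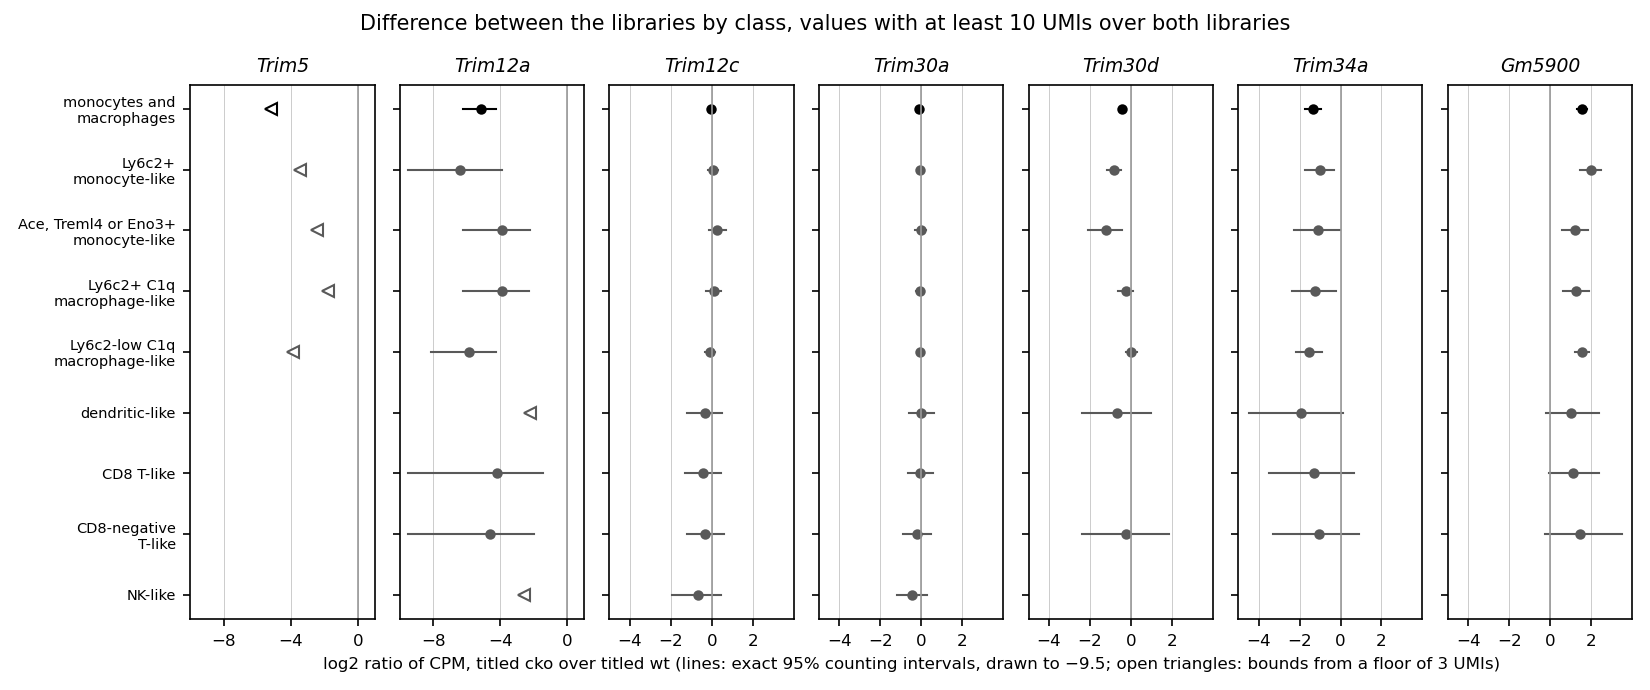
Log2 ratio of CPM, cko over wt (x axes, wider for Trim5 and Trim12a), of each gene in the gated monocytes and macrophages (black) and 8 classes (grey), for values with at least 10 UMIs over both libraries. Lines are exact 95% counting intervals and open triangles are bounds from a floor of 3 UMIs; Trim30d is at −0.84 in Ly6c2+ monocyte-like and at 0.01 in Ly6c2-low C1q macrophage-like cells.

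T and NK cells were pooled for the same comparison, 195 cells titled wt and 228 titled cko. Activity of LysMCre in these cells was not tested. Trim12a had 56 UMIs (34.6 CPM) in the library titled wt and 2 UMIs (1.06 CPM) in the library titled cko, a log2 ratio of −5.03 (interval −8.11 to −3.11). Trim5 had 10 and 2 UMIs (−2.54, interval −5.77 to −0.31). Gm5900 had 14 UMIs (8.65 CPM) and 45 UMIs (23.8 CPM), a log2 ratio of 1.46 (interval 0.57 to 2.44).

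The intervals for Trim12c (66 and 56 UMIs), Trim30a (123 and 121 UMIs), Trim30d (15 and 7 UMIs) and Trim34a (16 and 9 UMIs) held 0 in the lymphoid cells. In the library titled wt, Lyz2, a myeloid gene, had 1056 CPM in T and NK-like cells and 19046 CPM in monocytes and macrophages. Trim12a had 34.6 and 19.0 CPM in the same cells. The part of RNA from other cells in the lymphoid values was not tested. In the lymphoid cells titled wt, 46 of 195 held a Trim12a UMI (23.6%), against 2 of 228 titled cko (0.877%). The values of Trim5 and Gm5900 rest on the sum over these lymphoid cells. By class, Trim5 had 7 UMIs titled wt and 1 titled cko in CD8 T-like, 0 and 0 in CD8-negative T-like and 3 and 1 in NK-like cells. The intervals of Gm5900 held 0 in each of these 3 classes.

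By class, the lymphoid Trim12a UMIs titled wt were 13 in CD8 T-like, 21 in CD8-negative T-like and 22 in NK-like cells, against 1, 1 and 0 titled cko. Dendritic-like cells had 10 and 0, which was 4.75-fold lower by the floor of 3 counts. That gate held 2 cells titled wt and 6 titled cko with 5 or more keratin UMIs, and such cells held 0 UMIs of Trim5 and Trim12a in either library. Over all kept cells of the library titled cko, 3 UMIs of Trim5 were found in 3 cells, 1 each of the CD8 T-like, the NK-like and the ungated cells. The 18 UMIs of Trim12a lay in 18 cells of 8 classes, ungated cells included.

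Without the cells that held a UMI of Krt8, Krt18 or Epcam, 1526 and 1629 monocytes and macrophages remained. Trim5 then had 90 and 0 UMIs, Trim12a a log2 ratio of −5.14, Trim34a of −1.17 and Gm5900 of 1.54. The differences were about as large without these cells.

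The pseudogene was then set beside its parent. Gm5900 matched the mRNA of Lamtor3, which encodes a scaffold of the Ragulator complex on lysosomes and lies on chromosome 3, in 373 of 375 bases (99.5%). The 2 differences, counted from base 1 of Gm5900 with the base of Gm5900 first, were T111C and A336G. They are in capitals in these windows of 41 bases, shown because a read from this stretch can be told apart only where it covers one of them.
Gm5900: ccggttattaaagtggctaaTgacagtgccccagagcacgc
Lamtor3: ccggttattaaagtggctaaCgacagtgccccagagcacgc
Gm5900: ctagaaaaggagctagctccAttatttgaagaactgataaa
Lamtor3: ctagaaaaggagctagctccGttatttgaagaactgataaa

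Of the 278 windows of 98 bases that fit into Gm5900, 138 covered a difference. The match lies inside the Lamtor3 mRNA, which goes on for 745 bases after it, and 0 of the read windows in the last 500 bases of Lamtor3 occurred in another gene. Lamtor3 had 1549 UMIs (90.9 CPM) in monocytes and macrophages titled wt and 1307 UMIs (69.0 CPM) in those titled cko, or −0.40 as a log2 ratio (interval −0.51 to −0.29), opposite to Gm5900. The sum of both genes was 102 CPM in the library titled wt and 103 CPM in the library titled cko (log2 ratio 0.00, interval −0.09 to 0.10). Gm5900 took 11.2% (exact Clopper-Pearson interval 9.79 to 12.8) of the summed UMIs in the library titled wt and 32.8% (30.8 to 34.97) in the library titled cko. In T and NK-like cells the shares were 11.9% and 33.6%, and in Ly6c2+ monocyte-like cells 10.1% and 36.5%. The interval of the summed log2 ratio held 0 in 7 of the 8 classes, and in Ly6c2+ C1q macrophage-like cells the sum was 117 and 95.3 CPM (log2 ratio −0.29, interval −0.55 to −0.04). How reads were divided between the 2 genes in counting was not tested.

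**Figure D3:**
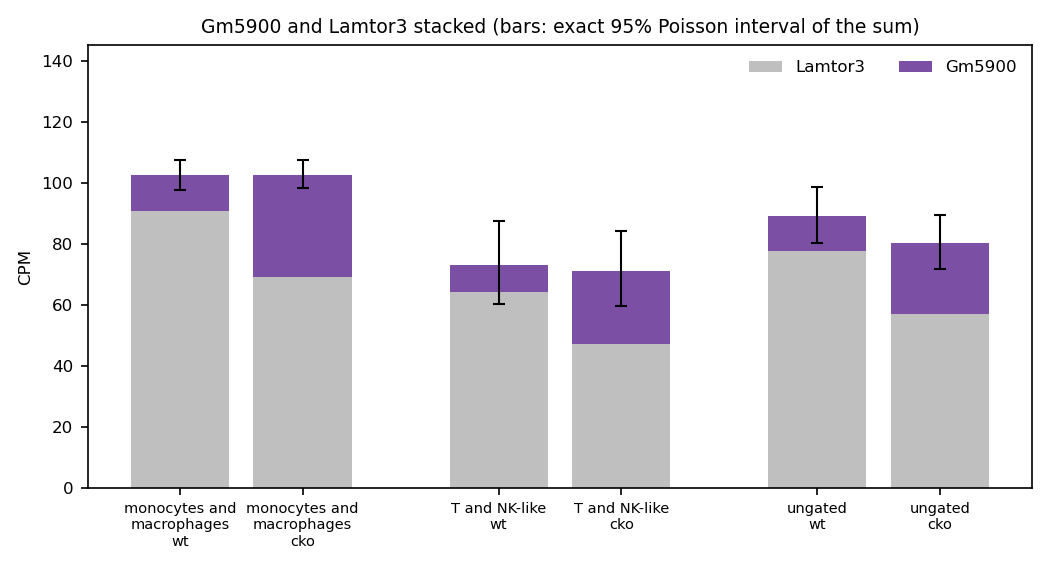
CPM (y axis, from 0) of Lamtor3 (grey) and Gm5900 (purple), stacked, in monocytes and macrophages, T and NK-like cells and ungated cells of each library, with the exact 95% Poisson interval of the sum. In monocytes and macrophages the sums are 102 and 103 CPM, while Gm5900 alone is 11.5 and 33.7 CPM.

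Interferon-stimulated genes were used to order the cells, since genes of this cluster respond to interferon. Monocytes and macrophages of both libraries were split into 3 groups of equal size, with low, middle and high interferon response, by the summed CPM of 40 type I interferon-stimulated genes that include no gene of the locus. From the low to the high group, Trim30d was 5.44-fold higher in the library titled wt and 5.35-fold in the library titled cko. Trim30a was 4.12-fold and 3.86-fold higher, Trim12c 2.90-fold and 2.61-fold, and Trim34a 2.63-fold and 3.00-fold. In the library titled wt Trim12a was 2.02-fold higher (log2 interval 0.60 to 1.43), while for Trim5 the 1.32-fold difference had an interval that held 0 (−0.31 to 1.12).

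Gm5900 did not follow the interferon-stimulated genes. Its level in the high group was 0.690 times that in the low group in the library titled wt and 0.972 times in the library titled cko. Between the libraries, Trim5 had 0 UMIs titled cko in all 3 groups, and Trim12a had log2 ratios of −5.62, −5.75 and −4.58 from the low to the high group. Gm5900 had log2 ratios of 1.30, 1.62 and 1.80. The differences were therefore found in cells with low as well as with high interferon response.

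**Figure D4:**
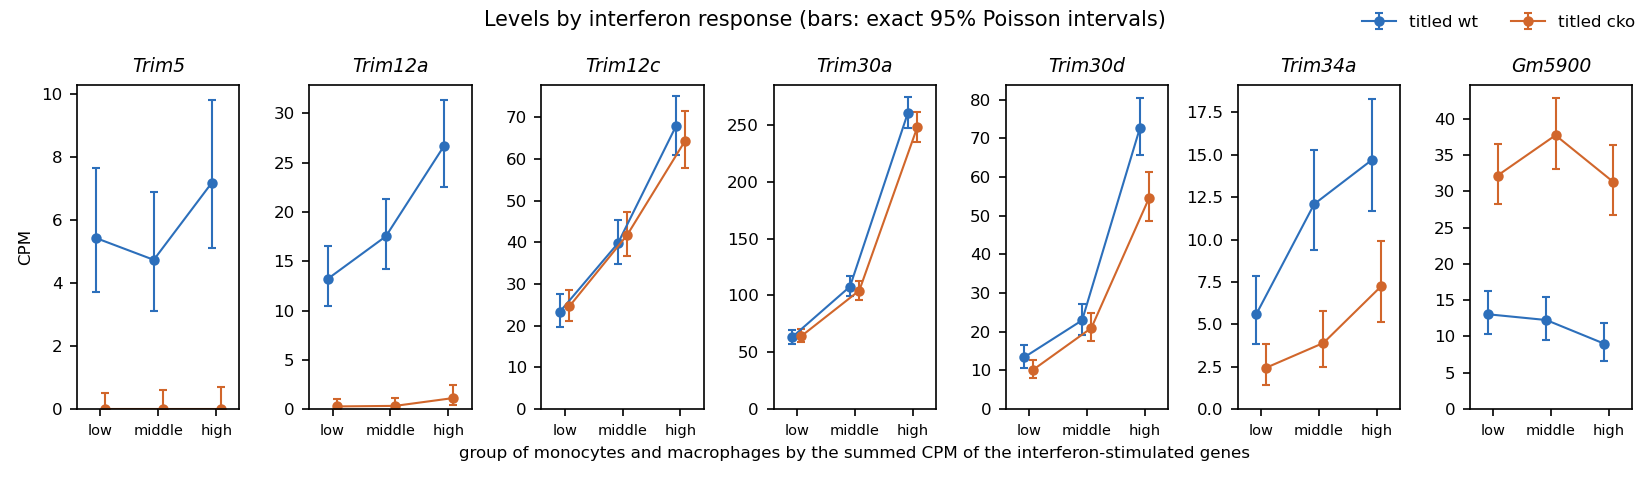
CPM (y axes, from 0, scaled per gene) of each gene in the low, middle and high group of monocytes and macrophages by the summed CPM of the interferon-stimulated genes, for the library titled wt (blue) and the library titled cko (orange), with exact 95% Poisson intervals. Trim30a goes from 63.2 to 261 CPM in the blue and from 64.2 to 248 CPM in the orange library, while Trim5 stays at 0 and Trim12a near 0 in the orange library.

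Which genes vary together was described over the 8 classes of both libraries, 16 points that share their libraries and differ in depth. Trim30a and Trim30d had a Pearson r of 0.90 on log2(CPM + 10), Trim30a and Trim12c 0.73. The values of Trim5 and Trim12a (0.61), Trim12a and Trim34a (0.70), Trim5 and Gm5900 (−0.68) and Trim12a and Gm5900 (−0.84) follow the split between the libraries that chose the genes. Among single monocytes and macrophages of the library titled wt, Trim5 and Trim12a had r = −0.016. Trim5 was found in only 91 and Trim12a in 282 of these 1579 cells. With so few UMIs this value cannot show whether the genes vary together in single cells. The genes whose levels were most like those of Trim30a, of 6945 compared, were Ms4a4c (0.97), Gbp2 (0.96), Mx1 (0.96), C1galt1c1 (0.95) and Rnf213 (0.95). Gbp2 and Mx1 encode interferon-induced GTPases. Among single monocytes and macrophages the highest pairwise r was that of Trim30a and Trim30d, 0.31 in the library titled wt and 0.22 in the library titled cko.

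Genes around the locus were examined next. Trim30b and Trim30c, which lie between Trim12c and Trim30a, had log2 ratios of −0.64 (interval −0.89 to −0.39) and −0.03 (−0.29 to 0.23). On the side of Trim34a the nearest genes with at least 100 UMIs were Trim21 (0.59), an antibody receptor with ubiquitin ligase activity, Rrm1 (0.56), a subunit of ribonucleotide reductase, and Stim1 (−0.05), the calcium sensor of the endoplasmic reticulum, the closest of them 1.68 Mb away. On the side of Gm5900 they were Fam160a2 (−0.10), Prkcdbp (1.68) and Smpd1 (−0.18), from 0.421 Mb on. Prkcdbp, which encodes a caveolae protein, had 43 UMIs titled wt and 153 titled cko.

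Within 5 Mb of the locus, 7 of 60 genes were at least 1.5-fold higher and 1 was lower in the library titled cko. With TMM scaling or with ratios centred on the median gene, 5 of these 60 were past the fold in place of 8. The neighbours were not counted again without the cells that held a UMI of Krt8, Krt18 or Epcam. These UMIs were more numerous in the library titled cko (Krt8 63 titled wt and 285 titled cko, Krt18 40 and 342). Over chromosome 7 as a whole, the locus left out, 24 of 692 genes were higher and 6 lower, with a median log2 ratio of 0.05. The lowest ratio among these 60 genes was that of Trim30b, far above those of Trim5 and Trim12a.

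**Figure D5:**
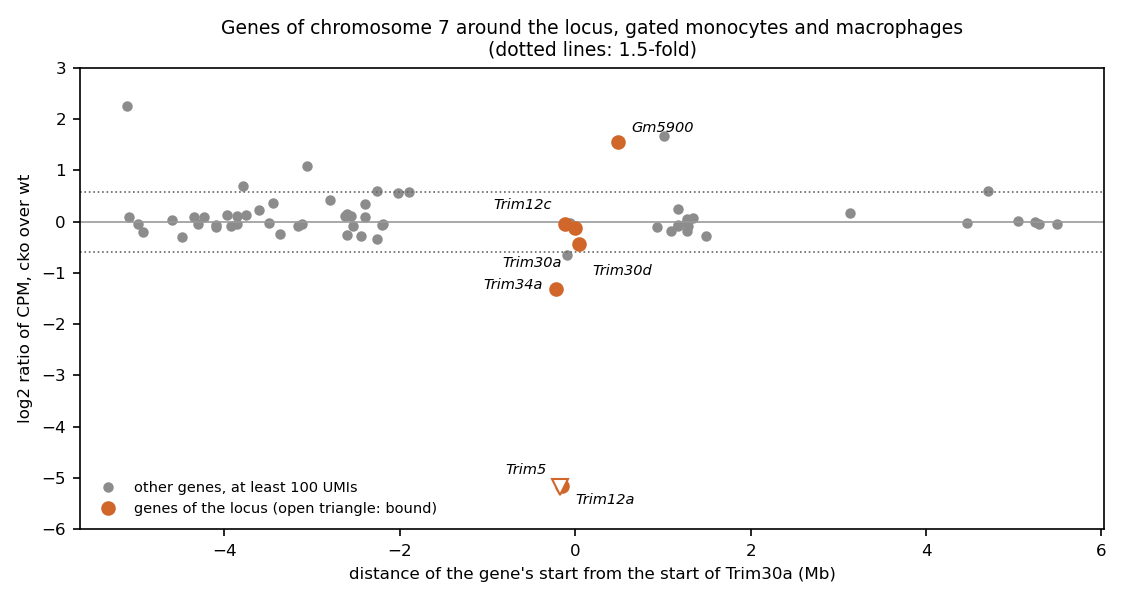
Log2 ratio of CPM, cko over wt (y axis), in monocytes and macrophages, against the distance in Mb of each gene's start from that of Trim30a (x axis), for genes of the locus (orange; the open triangle of Trim5 is a bound) and other genes within 5 Mb with at least 100 UMIs (grey). Dotted lines mark 1.5-fold; Trim5 and Trim12a lie near −5.2, below every other gene drawn.

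Other genes of related function were counted next. Of 61 other TRIM genes, 27 had at least 100 UMIs in monocytes and macrophages, of which Trim21 was past the fold upward and Trim30b downward, with a median log2 ratio of 0.03 against 0.04 for all genes. Over all genes tested 3.24% were higher and 0.539% lower. In a list of this size 1 higher gene lies near the background, while 1 lower gene is above it. The lower gene, Trim30b, lies inside the locus. Trim37 (0.58) and Trim36 (−0.34) came next. Of the 40 interferon-stimulated genes, Ifi44 was past the fold (log2 ratio 1.25, interval 1.11 to 1.39) and 0 were lower by 1.5-fold. These counts lie near the background. The ratios as a set lay lower, with a median of −0.16 against 0.04 for all genes. The second highest ratio was 0.038, so every gene of the list but Ifi44 lay below the median gene (0.043). This shift was not tested. Parp14 (−0.43) and Ifit1 (−0.37) had the lowest ratios.

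Of 12 other retroviral restriction factors with enough UMIs, 0 were past the fold in either direction, with a median of −0.05. Against the shares of 3.24% and 0.539% over all genes, 0 lies near the background. The highest ratio was that of Ifitm6 (0.16), of a family that blocks virus entry. Of 14 ubiquitin and kinase partners of TRIM5 and TRIM30, 0 were past the fold, with a median of 0.04, which also lies near the background. Among them Ube2w, a conjugating enzyme used by TRIM5, had −0.17 and Ube2v2 0.13.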

How the data were processed

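Raw UMI counts per gene and cell, as deposited by the authors, were used (2 libraries; 24492486 UMIs titled wt and 27163485 titled cko). Submitters' processing notes name Cell Ranger, Seurat and mm10, with versions not given in the sources used here. The members and gene lists were chosen with earlier results of these data known. Kept cells had 200 or more genes and up to 10% mitochondrial UMIs (4 and 14 failed). Scrublet (scanpy 1.11.5) marked 7 of 5149 cells (0.136%), under the 0.5% taken as failure, so the 48 and 59 highest scores were removed. Gates, first match wins, used UMIs of marker genes: C1q macrophages had at least 10 of C1qa, C1qb and C1qc, and were split at 3 of Ly6c2. Between 5 and 19 C1q UMIs lay 170 and 172 cells. UMIs were summed per class and library and scaled to CPM. Log2 ratios have exact conditional binomial 95% intervals, shares Clopper-Pearson ones. There was no test, with 1 library per group. Differences of 1.5-fold were counted among genes with at least 100 UMIs. Named genes were all members, Lyz2, the 3 nearest genes per side, the 5 most like the member with most UMIs, and the 2 highest and lowest of each list; genes between the members, Lamtor3, the keratins and Trim34b were added after values were seen. A gene that this rule names is not reported here. Of 27998 gene IDs 27645 had a position in GENCODE M21 (GRCm38). Transcripts were aligned with BLAST 2.17.0 and TMM factors came from edgeR 4.0.16. Ratios and intervals were tested on simulated data. Alternatives were other scalings, gates, filters and depths.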

Additional observations from a re-analysis of the deposited data

Results flagged for a closer look

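The log2 ratio of Trim30d, cko over wt, was negative in 3 of the 4 monocyte and macrophage classes and positive in Ly6c2-low C1q macrophage-like cells. The difference between Ly6c2+ monocyte-like and Ly6c2-low C1q macrophage-like cells was −0.85, and that between Ace, Treml4 or Eno3+ monocyte-like and Ly6c2-low C1q macrophage-like cells was −1.24. Neither difference was tested, since each class had 1 library per group, and the positive value, 0.01, had an interval that held 0.

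Cells that met no gate were outside the comparison of gated classes. In these 536 and 532 cells the log2 ratio was −4.93 for Trim5 (32 and 1 UMIs, interval −10.3 to −2.35), −4.10 for Trim12a (90 and 5 UMIs, interval −5.76 to −2.83), −1.31 for Trim34a (57 and 22 UMIs, interval −2.09 to −0.57) and 0.99 for Gm5900 (49 and 93 UMIs, interval 0.48 to 1.52). Gm5900 took 13.03% and 28.8% of the summed UMIs of Gm5900 and Lamtor3 there. The directions were those of the gated monocytes and macrophages.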

How the results depend on the processing

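No paired analysis was possible because there was 1 library per group. Without replicates and with few UMIs per cell, counting error was the only error measured. Each gene's log2 ratio was recomputed under 14 alternatives, of which keratin-free cells, all kept cells and the groups by interferon response were chosen after seeing the data, as were the sum of Gm5900 with Lamtor3 and the 5 Mb window. Trim12a (−5.75 to −4.58), Trim34a (−1.63 to −1.02) and Trim12c (−0.17 to 0.07) stayed within their intervals in all 14. Trim5, a bound except in all kept cells (−5.73, with 3 UMIs titled cko), was −4.70 with stricter gates, −3.30 in thinned cells and −3.75, −3.28 and −3.68 in the low, middle and high interferon group, as fewer UMIs were counted. Trim30d was −0.64 as a mean over cells, −0.61 in thinned cells and −0.13 in the middle group. Trim30a was 0.022 in the low group. Gm5900 was 1.30 and 1.80 in the low and high group and 0.0041 summed with Lamtor3.

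The 306 genes higher and 51 lower became 685 and 160 at 30 UMIs, 100 and 25 at 300 UMIs, and 1688 and 743 with no minimum. Stricter gates gave 202 higher. The 8 neighbours past the fold became 2 at 300 UMIs, 23 with no minimum, and 5 with TMM, with centring and with stricter gates. Log2 ratios of shares of cells moved for Trim5 from −3.55 to −2.94 and −1.55 at 2000 and 1000 UMIs, and for Trim34a from −1.47 to −0.61 at 2000. For Trim30d the ratio reversed from −0.68 to 0.10 at 1000 UMIs, and the cause was not tested. In single classes, stricter gates moved Trim34a in Ace, Treml4 or Eno3+ cells from −1.09 to −2.31 (13 and 3 UMIs) and Trim30d in Ly6c2+ C1q cells to −0.70. With 0 UMIs titled cko, the floor of 3 counts gave Trim5 −2.65 in Ly6c2+ monocyte-like, −0.94 in Ace, Treml4 or Eno3+ and −0.70 in Ly6c2+ C1q cells. It gave Trim12a −1.66 in dendritic-like cells, as fewer UMIs were counted. The upper ends of the exact intervals were −2.22, −0.073, 0.066 and −1.01 in the same order. The interval of Trim5 in Ly6c2+ C1q cells (6 and 0 UMIs) thus held 0.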
